A study of Mus musculus with 16 samples.

Results

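The feeding and energy balance genes Bdnf, Ntrk2, Npy, Agrp, Pomc, Cartpt, Lepr, Mc4r, Mc3r and Npy1r, 10 in all, were read out of a table of 24176 gene symbols measured by RNA sequencing in 16 mouse brain libraries. The 10 genes were chosen by name, with earlier results of these data known, and all 10 are in the table. Counts of members set beside shares of all tested genes are therefore a description, not a test of the group. The libraries form 8 groups of 2, in 4 sets that each pair a group labelled wild type with a group labelled as a conditional knockout (CKO) of Rai1, the gene of a nuclear protein that binds chromatin. The hypothalamus set was taken at 8 weeks of age from B6/129 F1 mice, and its knockout group is Vglut2-Cre;Rai1CKO, in which Cre is driven from the locus of a glutamate transporter of subcortical excitatory neurons. The cortex set was taken at 3 weeks from B6/FVB F1 mice, with Nestin-Cre, active in neural progenitors, in the knockout group. The striatum sets were taken at 3 and at 12 weeks from B6/FVB F1 mice, with Gad2-Cre, active in GABAergic neurons, in the knockout groups. The labels name no treatment. They do not say whether the wild types carry a floxed allele or a Cre, nor whether the replicates of a group are separate animals, so p-values reflect only how these libraries scatter, part of which may be technical.

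Rai1 itself went against the labels in the hypothalamus. It stood at 3.68 and 3.99 RPKM (a level in reads, scaled for transcript length and library depth) in the libraries labelled wild type and at 8.47 and 6.52 in those labelled knockout. In striatum too it was higher where labelled knockout, at 6.52 and 7.01 RPKM against 3.77 and 3.24 (3 weeks) and 12.3 and 13.3 against 5.08 and 4.88 (12 weeks). In cortex it was lower, at 4.28 and 3.03 RPKM against 4.35 and 5.70. Which part of Rai1 was deleted no source used here says, and the value pools all of the gene's exons, so this neither checks nor overturns a label, and every direction below is between libraries as labelled. Depth was estimated at 21711280 to 35565716 reads or read pairs per library. The tissue labels were checked on marker genes. Hcrt (70.9 to 99.2 RPKM), Pmch (61.6 to 90.2) and Avp (40.4 to 52.6), peptides of hypothalamic neurons, were abundant in all 4 hypothalamic libraries, and 6 markers of cortical excitatory neurons summed to only 0.928 to 1.36 RPKM there.

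As background, the arcuate nucleus of the hypothalamus holds neurons of opposite action on appetite. One kind makes neuropeptide Y (Npy) and the agouti-related peptide (Agrp) and promotes eating. The other makes pro-opiomelanocortin (Pomc), the precursor of the melanocortin peptide α-MSH, often together with the peptide encoded by Cartpt, and restrains it. α-MSH acts on the melanocortin receptors Mc4r and Mc3r, where Agrp opposes it. Leptin from fat reaches these neurons through its receptor Lepr, and Npy acts in part through Npy1r. Bdnf, a neurotrophin that signals through the receptor TrkB (gene Ntrk2), lowers food intake in the hypothalamus, where the ventromedial nucleus is a known site of its expression. Npy and Cartpt are also made outside these circuits, Npy by interneurons of cortex and striatum among others. In bulk tissue, fewer cells of a type and less RNA per cell cannot be told apart.

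Promoter sequences, 250 bases before to 50 after a transcription start, were taken from RefSeq on build GRCm38.p6, where 8 of the 10 genes matched, all but Agrp and Mc4r. The 4 shown are those of the genes with the smallest p-values in the hypothalamus, Bdnf and Npy among the 10, and of the peptide genes that were highest there against the other regions, Pomc and Cartpt. Capitals mark the motif found in each, if any.

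Bdnf (chr2:109692186-109692485, plus strand): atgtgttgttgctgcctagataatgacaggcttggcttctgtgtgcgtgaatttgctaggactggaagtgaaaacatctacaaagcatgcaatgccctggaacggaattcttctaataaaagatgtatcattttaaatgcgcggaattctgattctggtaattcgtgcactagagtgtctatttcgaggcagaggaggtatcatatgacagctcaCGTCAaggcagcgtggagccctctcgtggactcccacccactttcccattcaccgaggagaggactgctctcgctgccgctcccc
Npy (chr6:49822460-49822759, plus strand): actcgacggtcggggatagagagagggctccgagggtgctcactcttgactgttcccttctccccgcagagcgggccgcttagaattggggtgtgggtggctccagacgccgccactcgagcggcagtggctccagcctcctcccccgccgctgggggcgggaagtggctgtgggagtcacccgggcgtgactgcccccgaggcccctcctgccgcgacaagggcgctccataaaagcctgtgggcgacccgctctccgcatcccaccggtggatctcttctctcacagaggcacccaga
Pomc (chr12:3954695-3954994, plus strand): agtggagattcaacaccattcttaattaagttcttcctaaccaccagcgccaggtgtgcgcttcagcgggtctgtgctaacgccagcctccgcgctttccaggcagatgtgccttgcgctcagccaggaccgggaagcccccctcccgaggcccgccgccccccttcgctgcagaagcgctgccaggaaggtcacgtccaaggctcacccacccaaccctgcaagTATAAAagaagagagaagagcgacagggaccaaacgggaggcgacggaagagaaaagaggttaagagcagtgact
Cartpt (chr13:99900634-99900933, minus strand): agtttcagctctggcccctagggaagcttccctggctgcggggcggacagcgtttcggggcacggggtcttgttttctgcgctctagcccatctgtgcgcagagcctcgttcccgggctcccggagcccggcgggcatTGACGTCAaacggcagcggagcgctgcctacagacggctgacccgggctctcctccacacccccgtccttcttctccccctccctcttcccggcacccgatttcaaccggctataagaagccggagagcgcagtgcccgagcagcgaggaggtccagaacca

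Motifs were searched on both strands. TGACGTCA, the full site of the cyclic AMP response element (CRE), is in the Cartpt promoter from position -112 relative to the start site, and in 1.79% of 32851 RefSeq promoters of this length. Its core TGACG, which overlaps the full site, is in 20.8% of them. It occurs on the minus strand (CGTCA as printed) at position -35 in the Bdnf promoter shown, and at position 9 in the Mc3r promoter. The Bdnf promoter shown is the third of 7 Bdnf start sites. It was picked as the first of them to hold TGACG, so the motif was there by choice. The shares given are per promoter and do not apply to Bdnf as a gene, for which 7 promoters were searched. TATAAA, the TATA box, is in the Pomc promoter at position -25 and in 13.6% of all promoters. The STAT-binding pattern TTCNNNGAA is in the promoter of the first Bdnf start site at position -122 and in 8.3% of all promoters. The E-box CACGTG (7.15% of all promoters) matched in none of the 8 genes, and the Npy window holds none of these 5 motifs.

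In the hypothalamus, Bdnf and Npy were lower in the libraries labelled knockout, Pomc was higher, and the remaining genes were close to wild type or varied between replicates. No member passed the test. With limma on log2(RPKM + 0.5) and Benjamini-Hochberg adjustment over 12348 genes, 0 of the 9 tested members had an adjusted p under 0.05, where 0.0081% of all tested genes did (1 gene). Bdnf and Npy, 2 of 9, had an unadjusted p under 0.05, against 1.76% of all tested genes. The members were chosen with earlier results of these data known, so this count is a description. The groups did not overlap for 5 of the 9, higher in knockout for Pomc, Cartpt and Mc3r and lower for Bdnf and Npy, against 34.2% of all tested genes. The median log2 change over the 9 was 0.01, and over all tested genes it was -0.06. Lepr, below 1 RPKM in every library, was not tested.

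Bdnf, the ligand, was at 1.95 and 2.30 RPKM in wild type and at 1.25 and 1.29 in knockout, resting on about 181 and 228 reads against 122 and 124. Both knockout libraries lay below both wild-type libraries, and the group means differed 1.67-fold. The log2 difference was -0.56 (SE 0.14, 95% interval -0.86 to -0.26) and ranked 10 by p among all 12348 tested genes, with an adjusted p of 1 in limma. An antisense gene, Gm45346, overlaps Bdnf. With the strand setting of the counting not given in the sources used here, its reads cannot be told apart from those of Bdnf. Ntrk2, whose value pools the full-length and the truncated forms of TrkB, was the most abundant of the 10 at 37.6 and 42.1 RPKM in wild type against 36.9 and 37.9 in knockout. Its groups overlapped, with a log2 difference of -0.09 (SE 0.13, 95% interval -0.38 to 0.20). The ratio of receptor to ligand RPKM was therefore 19.3 and 18.4 in wild type against 29.5 and 29.4 in knockout.

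Of the appetite-promoting peptides, Npy was at 4.78 and 6.41 RPKM in wild type and at 3.10 and 2.84 in knockout, on about 59 and 85 reads against 40 and 36. Again both knockout libraries lay below both wild types, with a 1.88-fold difference of the means. Its log2 difference was -0.80 (SE 0.25, 95% interval -1.33 to -0.27), ranked 31 by p, with an adjusted p of 1 in limma. Fitted on the 4 hypothalamic libraries alone, Npy passed (adjusted p = 0.00111 in limma, SE 0.13), among 25 genes called of 11616, while Bdnf (adjusted p = 0.135) and Pomc (0.125) did not. The estimate for Npy is the same in both fits and its SE differs. In the fit on 4 libraries, limma drew each gene's spread toward that of other genes. Ntrk2 (0.133) and Npy1r (0.131) had nearly the same SE there as Npy. The call for Npy thus rests partly on spread borrowed from other genes. Agrp, made by the same arcuate neurons, was at 1.36 and 0.92 RPKM in wild type and at 1.14 and 1.36 in knockout, about 16 to 23 reads per library. Its groups overlapped, and the log2 difference was 0.10 (SE 0.20, 95% interval -0.32 to 0.53); without the second wild-type replicate it was -0.09. Exons of Agrp overlap Ctcf on the other strand and Gm5914 on the same strand, so part of its signal may belong to them. The ratio of Npy to Agrp RPKM was 3.51 and 6.98 in wild type against 2.71 and 2.09 in knockout.

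Of the appetite-restraining peptides, Pomc was at 13.6 and 12.0 RPKM in wild type and at 17.3 and 19.2 in knockout, so that both knockout libraries lay above both wild types. Its log2 difference was 0.49 (SE 0.23, 95% interval -0.00 to 0.99), ranked 219 by p, with an adjusted p of 1 in limma. Pomc is also a pituitary gene. The pituitary markers Gh, Prl and Pou1f1 were listed at 0 in all 4 hypothalamic libraries, and all 7 pituitary markers summed to 0.974 and 2.27 RPKM in wild type and 0.522 and 0.992 in knockout, with overlapping groups. None of the 7 passed the filter on low values, so none was tested. The 5 arcuate markers other than Pomc summed to 4.78 and 5.53 RPKM in wild type and 5.92 and 6.22 in knockout, and their part in the Pomc difference was not tested. Cartpt was at 18.6 and 19.9 RPKM in wild type and at 21.9 and 20.1 in knockout. The groups did not overlap, by a narrow margin, and the log2 difference was 0.12 (SE 0.30, 95% interval -0.53 to 0.77). These SEs are estimated over all 8 groups, not from the hypothalamus only. In the hypothalamic libraries alone the SE was 0.126 for Cartpt and 0.125 for Pomc, and neither gene passed.

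Among the receptors the differences were smaller in size than those of Bdnf, Npy and Pomc. Mc4r was at 1.09 and 1.31 RPKM in wild type and at 0.88 and 1.21 in knockout, a log2 difference of -0.14 (SE 0.18, 95% interval -0.53 to 0.24) that turned to 0.01 without the first knockout replicate. Mc3r was at 1.66 and 2.37 RPKM in wild type and at 2.43 and 2.61 in knockout, with non-overlapping groups and a log2 difference of 0.28 (SE 0.18, 95% interval -0.11 to 0.67). Npy1r was at 3.19 and 4.28 RPKM in wild type and at 3.60 and 3.88 in knockout, inside the wild-type range. Its log2 difference was 0.01 (SE 0.14, 95% interval -0.29 to 0.31). Lepr was at 0.59 and 0.57 RPKM in wild type and at 0.72 and 0.62 in knockout, slightly higher in both knockout libraries. In a fit without the filter on low values its log2 difference was 0.11 (SE 0.10). No receptor gene therefore had an interval that excluded 0, and the intervals of Mc4r and Npy1r reach down to -0.53 and -0.29.

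**Figure D1:**
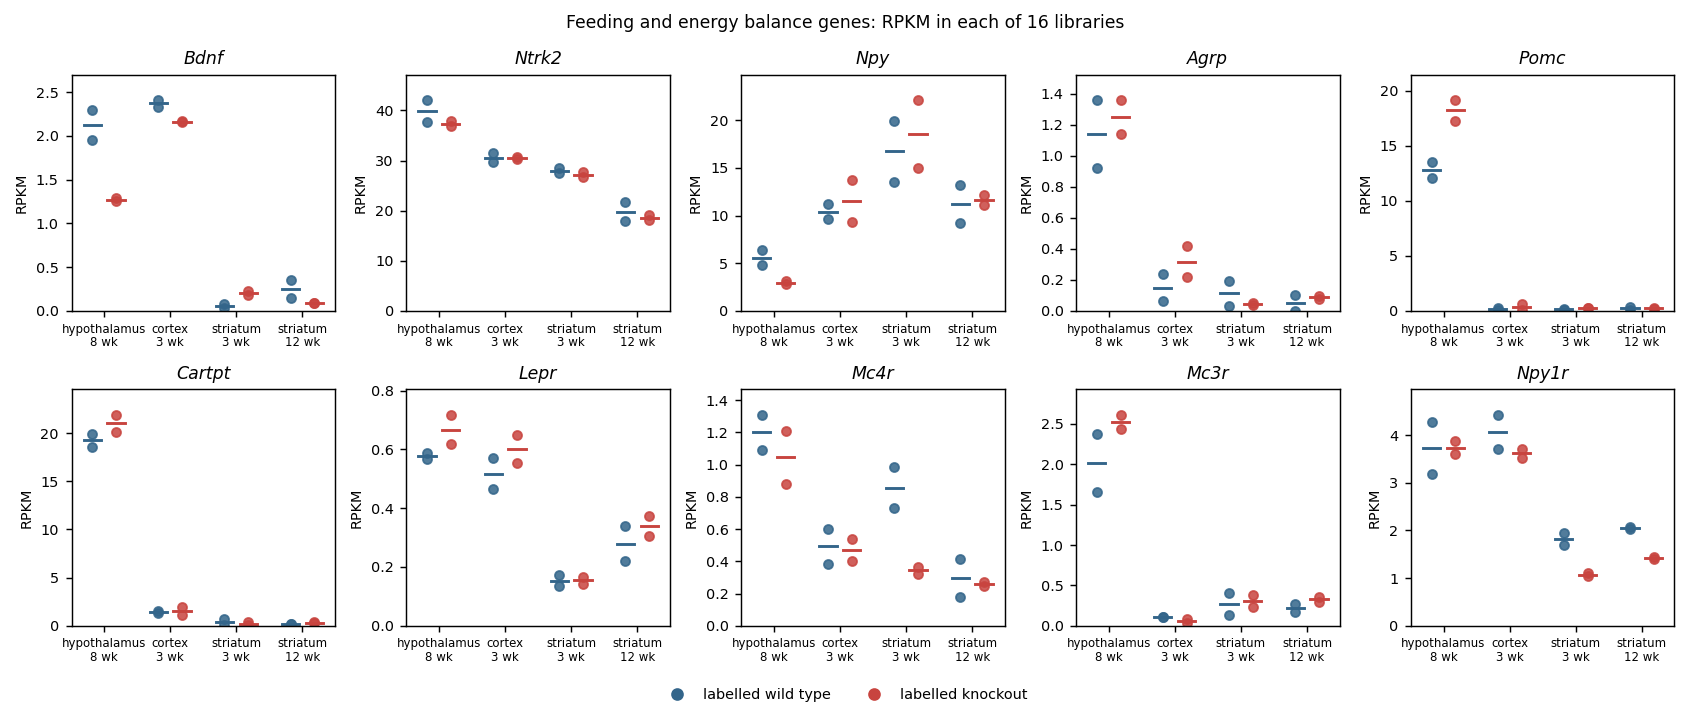
RPKM of each of the 10 genes in all 16 libraries, with 1 panel per gene, the 4 region and age sets along the x axis, points for libraries (blue labelled wild type, red labelled knockout) and short lines for group means. In the hypothalamus, Bdnf (1.25 and 1.29 against 1.95 and 2.30) and Npy (3.10 and 2.84 against 4.78 and 6.41) lie lower in the knockout libraries, and Pomc lies higher.

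Marker lists of cell types and nuclei were read in the same libraries, and none of their genes passed the test in this comparison. Slc17a6, the glutamate transporter gene whose locus drives Cre here, was at 42.5 and 42.4 RPKM in wild type and at 31.0 and 32.0 in knockout, a log2 difference of -0.42 (SE 0.12, adjusted p = 1). The 2 markers of subcortical glutamatergic neurons summed to 42.7 to 42.8 RPKM in wild type and 31.2 to 32.3 in knockout. Slc17a6 is 1 of them and makes up nearly all of this sum, which therefore adds no further marker. The 5 markers of the paraventricular and supraoptic nuclei summed to 63.9 to 90.5 RPKM in wild type and 59.6 to 62.5 in knockout. The 4 endothelial markers summed to 25.3 to 25.4 RPKM in wild type and 21.1 to 23.1 in knockout, and the 7 of oligodendrocytes to 728 to 749 and 754 to 880. For GABAergic neurons (91.0 to 107.8 RPKM and 75.3 to 92.0), astrocytes and tanycytes (197 to 231 and 173 to 216) and microglia (21.7 to 26.7 and 19.3 to 23.5) the sums overlapped. Every tested gene of these lists had a negative estimate, as did the 4 tested paraventricular and supraoptic markers and 68.9% of all tested genes. All 7 oligodendrocyte markers had a positive estimate. In the ventromedial nucleus, a site of Bdnf expression, the markers did not run together. Nr5a1 (2.43 and 2.56 RPKM in wild type, 3.00 and 3.65 in knockout) and Fezf1 (3.37 and 3.42, 3.80 and 3.88) were higher in knockout, and Adcyap1 (19.7 and 17.9, 13.5 and 13.8) was lower. No marker of the lists named here was at 0 in these libraries. The part of cell composition in the Bdnf and Npy differences was not tested.

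The other genes of these pathways were taken from 6 lists, also chosen with earlier results of these data known, so their counts are a description. None of their genes passed in the hypothalamus, and they lay mostly on the negative side, as did 68.9% of all tested genes. Of 8 neurotrophin genes 6 were tested and 5 were negative. The smallest p-value, 0.187 unadjusted in limma, was that of Furin, a protease that cleaves neurotrophin precursors. Furin was at 2.15 and 1.84 RPKM in wild type against 1.51 and 1.75 in knockout. Both knockout libraries were lower, as for 24.6% of all tested genes. Of 12 genes of melanocortin processing and signalling 9 were tested, 8 were negative and the median log2 change was -0.16. They were led by Pcsk1, which cuts Pomc into its peptides, at 12.9 and 14.4 RPKM against 10.9 and 11.8, and by Cpe, which trims peptide ends, at 214 and 239 RPKM against 171 and 202. For Pcsk1 and Cpe, both knockout libraries lay below both wild types, the reverse of Pomc itself. Their unadjusted p-values in limma were 0.253 and 0.261.

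Of the 8 listed NPY relatives and receptors 7 were in the table and 2 were tested. Npy5r, a receptor through which Npy promotes eating, was at 1.94 and 2.28 RPKM in wild type and at 1.20 and 1.51 in knockout, with a log2 difference of -0.49 (SE 0.16, adjusted p = 1). Npy2r, a receptor that acts on the Npy neurons themselves, was at 6.02 and 8.37 RPKM against 5.91 and 5.60. The lower Npy5r was not particular to the hypothalamus. In cortex Npy5r was at 0.80 and 0.73 RPKM in wild type against 0.51 and 0.46 in knockout. In 3-week striatum it was at 0.84 and 1.02 against 0.55 and 0.58, while its groups overlapped at 12 weeks. Among 10 leptin and insulin signalling genes 8 were tested and 5 were negative, with a median of -0.05. Stat3, the transcription factor downstream of Lepr, was at 7.76 and 9.31 RPKM against 7.17 and 8.28, and the kinase Jak2 at 5.08 and 5.51 against 4.62 and 5.17, so the groups of both genes overlapped.

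The list of 22 other feeding peptides and receptors had 19 tested genes, 15 of them negative, with a median of -0.18. Among the 19, 3 were lower and 0 higher at an unadjusted p under 0.05, against 1.24% and 0.518% of all tested genes. Htr2c, the serotonin receptor that acts on Pomc neurons, was at 10.02 and 9.70 RPKM in wild type and at 5.79 and 5.98 in knockout, a log2 difference of -0.70 (SE 0.20, adjusted p = 1 over all 16 libraries and 0.00188 in the hypothalamic libraries alone). Hcrtr2, an orexin receptor, was at 3.24 and 3.54 RPKM against 2.11 and 2.24, and Adcyap1, the peptide PACAP, which is among the ventromedial markers too, was at 19.7 and 17.9 RPKM against 13.5 and 13.8. Their log2 differences were -0.54 and -0.44. Both genes were lower in knockout cortex as well. There Hcrtr2 was at 0.70 and 0.71 RPKM in wild type against 0.29 and 0.46, and Adcyap1 at 2.71 and 3.31 against 2.70 and 1.71. In striatum the groups of both genes overlapped at both ages. Averaged over the 4 sets, Htr2c was the 1 companion gene that fell with an adjusted p under 0.05 (mean log2 difference -0.71, adjusted p = 0.0061). Bdnf is also a gene of the neuronal activity response, so 12 other activity-regulated genes were listed. Of the 11 tested, 6 were negative and the median was -0.01. Fos was at 4.39 and 4.32 RPKM against 3.06 and 3.90, and Egr4 at 0.27 and 0.16 against 0.15 and 0.14. These 2 had the smallest p-values of the list, but those were 0.405 and 0.531 unadjusted in limma. Both knockout libraries lay below both wild types, as they did for 24.6% of all tested genes.

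**Figure D2:**
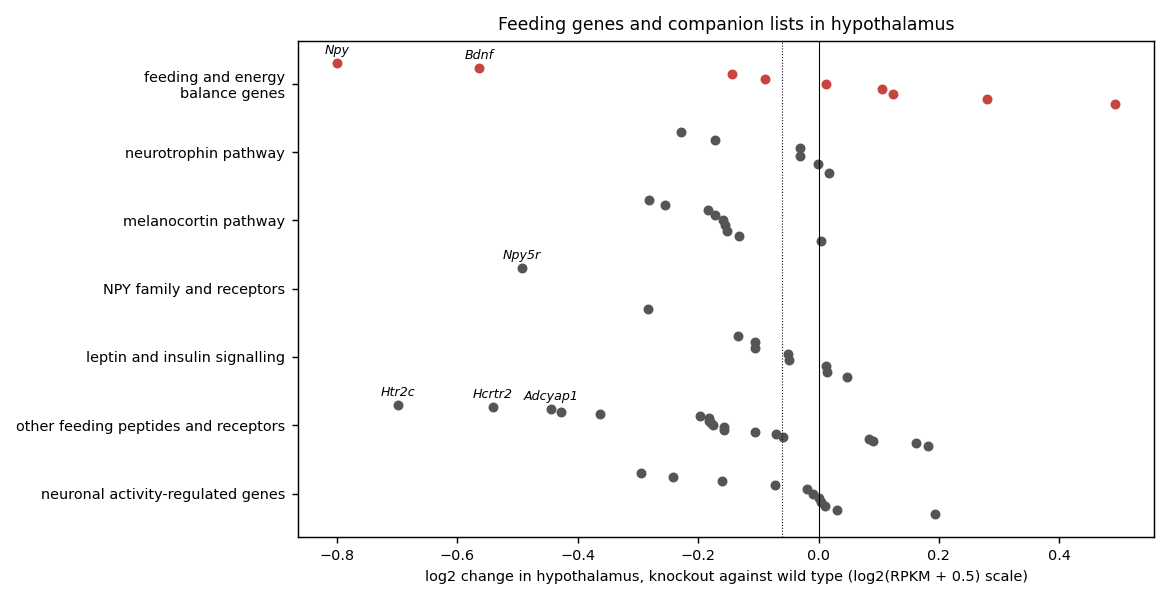
Estimated log2 difference in the hypothalamus, knockout against wild type, on the x axis, with 1 row per gene list and 1 point per tested gene; names are given for genes with an unadjusted p under 0.05, and the dotted line is the median of all tested genes (-0.06). Npy (-0.80) and Bdnf (-0.56) lie left of most genes of the pathway lists, next to Htr2c, Hcrtr2 and Npy5r.

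Outside the hypothalamus, no member passed the test in cortex (0.0405% of all tested genes called), striatum at 3 weeks (0.0324%) or striatum at 12 weeks (0.0405%). Unadjusted p-values under 0.05 were found for 0 of 9 members in cortex, against 6.26% of all tested genes. In striatum they were found for 3 of 9 at 3 weeks, against 7.55% of all tested genes, and for 2 of 9 at 12 weeks, against 4.4%. Npy was not lower outside the hypothalamus: knockout and wild-type libraries were at 13.7 and 9.33 against 9.63 and 11.2 RPKM in cortex, 15.0 and 22.1 against 13.5 and 20.0 in striatum at 3 weeks, and 11.1 and 12.1 against 9.25 and 13.2 at 12 weeks. These groups overlapped in all 3 sets.

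Bdnf was slightly lower in knockout cortex, at 2.41 and 2.33 RPKM in wild type against 2.16 and 2.16 in knockout (log2 difference -0.11). Both knockout libraries lay below both wild types there, as for 21.6% of all tested genes. In striatum it was at most 0.35 RPKM, on about 6 to 33 reads per library, and its direction differed between the ages. The 3-week values were 0.04 and 0.08 RPKM in wild type against 0.22 and 0.18 in knockout (log2 difference 0.33, adjusted p = 0.619), and the 12-week values 0.15 and 0.35 against 0.09 and 0.09 (-0.33, adjusted p = 0.989). Markers of cortical excitatory neurons, cells that make Bdnf, moved with these differences. The 6 markers summed to 1.98 to 6.52 RPKM in wild type and 9.91 to 16.8 in knockout at 3 weeks, and to 4.22 to 13.5 against 1.87 to 2.09 at 12 weeks, with no marker at 0. Their part in the striatal Bdnf values was not tested.

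Among the receptors, Npy1r had an unadjusted p under 0.05 at both striatal ages and Mc4r at 3 weeks only. Npy1r was at 1.70 and 1.94 RPKM in wild type against 1.10 and 1.04 in knockout at 3 weeks, and at 2.03 and 2.07 against 1.45 and 1.40 at 12 weeks. Both knockout libraries were lower at both ages, with log2 differences of -0.56 (SE 0.14, adjusted p = 0.466) and -0.41 (SE 0.14, adjusted p = 0.988). In cortex Npy1r was at 4.43 and 3.71 RPKM against 3.71 and 3.53. Mc4r was at 0.73 and 0.98 RPKM in wild type against 0.32 and 0.37 in knockout at 3 weeks (log2 difference -0.68, SE 0.18, adjusted p = 0.552), while at 12 weeks its groups overlapped, at 0.18 and 0.42 against 0.28 and 0.24. The median tested gene stood at -0.13 in the 3-week comparison. Mc4r's cortical groups overlapped too, at 0.38 and 0.60 RPKM against 0.54 and 0.41.

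The remaining members gave low values or small differences outside the hypothalamus. Ntrk2 was at 29.7 and 31.4 RPKM in wild-type and 30.3 and 30.6 in knockout cortex, at 27.4 and 28.5 against 26.7 and 27.7 in 3-week striatum, and at 17.9 and 21.7 against 18.1 and 19.2 in 12-week striatum. Cartpt stayed between 1.17 and 1.99 RPKM in the 4 cortical libraries and between 0.03 and 0.70 in the 8 striatal ones. Pomc, Agrp and Mc3r reached at most 0.58, 0.42 and 0.41 RPKM in any library of cortex or striatum, and Lepr at most 0.65. The Pomc and Agrp maxima both came from the first cortical knockout library. That library also held the hypothalamic peptide genes Avp at 3.52 and Pmch at 1.33 RPKM. Avp and Pmch were at most 0.14 and 0.19 RPKM in the other cortical libraries, and the source of these transcripts was not tested. Agrp was listed at 0 in 1 wild-type library of striatum at 12 weeks.

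Averaged over the 4 sets, no member passed either, where 0.373% of all tested genes did (46 genes, 44 of them lower). Npy1r came nearest, with a mean log2 difference of -0.28 (SE 0.07, adjusted p = 0.196). The mean was -0.17 for Bdnf (adjusted p = 0.858), -0.23 for Mc4r (0.799) and 0.27 for Pomc (0.861), so 4 of 9 members had an unadjusted p under 0.05, against 5.2% of all tested genes. The difference between the hypothalamic effect and the mean effect of the other 3 sets was tested as an interaction. It was called for no gene (0% of 12348; 151 genes, 1.22%, at an unadjusted p under 0.05). Among the 9 members, 3 had an unadjusted p under 0.05. Bdnf differed by -0.53 (SE 0.16) and Npy by -0.91 (SE 0.29), both lower in the hypothalamus, and Npy1r by 0.38 (SE 0.16), all with an adjusted p of 1. A hypothalamic effect that differs from the other sets was therefore not shown for any member. Region, age, strain and Cre driver differ together between the hypothalamus set and the others and cannot be told apart.

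**Figure D3:**
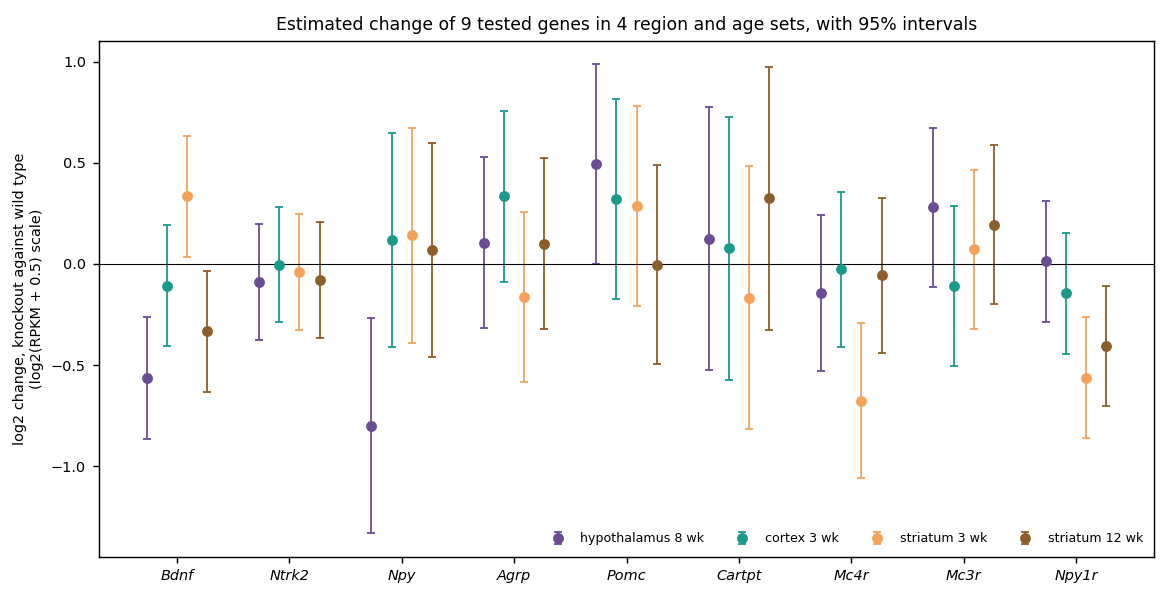
Estimated log2 change, knockout against wild type, of the 9 tested genes in the 4 region and age sets, on the y axis, with 95% intervals from limma as bars. Npy lies below 0 in hypothalamus (-0.80) and near 0 elsewhere. Bdnf is below 0 in hypothalamus (-0.56) and slightly below in cortex (-0.11), and takes both signs in striatum (0.33 and -0.33). Npy1r is below 0 at both striatal ages (-0.56 and -0.41).

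Across wild-type libraries the hypothalamus had its own order of these genes. By group mean RPKM it ran Ntrk2 (39.9 ± 3.19, SD, n = 2), Cartpt (19.3 ± 0.910), Pomc (12.8 ± 1.09), Npy (5.59 ± 1.16), Npy1r (3.74 ± 0.767), Bdnf (2.12 ± 0.243), Mc3r (2.02 ± 0.503), Mc4r (1.20 ± 0.154), Agrp (1.14 ± 0.312) and Lepr (0.578 ± 0.0127). Bdnf and Mc3r, and Mc4r and Agrp, did not differ beyond their spread. Ntrk2 exceeded 96.7% of all tested genes in wild-type hypothalamus, Cartpt 90.5% and Pomc 83.5%, while Mc4r exceeded 10.8% and Agrp 9.77%. In cortex and in striatum at both ages the order instead began with Ntrk2, Npy and Npy1r.

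Against wild-type striatum at 12 weeks, 64.8% of all tested genes were called, and the median gene was 0.49 higher in the hypothalamus on the log2 scale, so each change is best read against that shift. A shift of 0.34 held against cortex at 3 weeks, where 56% were called. Scaling the libraries by median ratios took both medians close to 0, and the share of calls that were higher in hypothalamus went from 84.2% to 49.8% against striatum and from 76% to 47.5% against cortex. Agrp, Pomc, Mc4r and Mc3r passed the filter on low values only through the hypothalamic libraries and so had to differ, and Lepr did not pass it. Their regional values are therefore given with no test, and no count over the members is given.

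Pomc and Cartpt had the largest log2 differences of the 9 genes between hypothalamus and the other regions. Pomc, at 13.6 and 12.0 RPKM in hypothalamus, stood at 0.10 and 0.39 in 12-week striatum and at 0.09 and 0.22 in cortex, log2 differences of 4.18 and 4.34, given as a description with no test. Cartpt, at 18.6 and 19.9 RPKM, was at 0.16 and 0.15 in that striatum and at 1.38 and 1.49 in cortex, log2 differences of 4.91 (SE 0.30, adjusted p = 1.85e-08) and 3.35 (adjusted p = 1.38e-06). Agrp, which was at most 0.24 RPKM in those wild-type libraries, differed by 1.57 from striatum and 1.34 from cortex. Because 0.5 was added before taking logs, these values understate the ratio of such low genes. Mc3r differed by 1.79 and 2.04 and Mc4r by 1.11 and 0.78. Like those of Pomc, the differences of these 3 genes are a description with no test.

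Bdnf separated the striatum from the other regions. It was at 1.95 and 2.30 RPKM in hypothalamus and 2.41 and 2.33 in cortex but in striatum only at 0.15 and 0.35 in the 12-week and 0.04 and 0.08 in the 3-week libraries. It was higher in hypothalamus than in striatum at 12 weeks by 1.82 on the log2 scale (SE 0.14, adjusted p = 1.42e-07). Against cortex the difference was -0.13 (adjusted p = 0.429); with median-ratio scaling it was -0.44 and passed (adjusted p = 0.0181). Ntrk2 was the member with the narrowest range for its level, from 17.9 to 42.1 RPKM over all 16 libraries. In wild type it was higher in hypothalamus than in striatum at 12 weeks by 0.996 (adjusted p = 2.66e-05). Its difference of 0.38 from cortex (adjusted p = 0.0279) was lost without any one of 3 libraries, at 0.34 and 0.42 without the first and second cortical wild type and 0.30 without the second hypothalamic wild type. With median-ratio scaling this Ntrk2 difference was -0.0041.

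Npy ran the other way from the other peptides. Its wild-type values were 4.78 and 6.41 RPKM in hypothalamus, 9.63 and 11.2 in cortex, 9.25 and 13.2 in 12-week striatum and 13.5 and 20.0 in 3-week striatum, so both hypothalamic libraries lay below all others. It was lower in hypothalamus than in striatum at 12 weeks by 0.94 (log2 difference -0.94, SE 0.25, adjusted p = 0.00489) and than in cortex (-0.85, adjusted p = 0.0109). Each call was lost without either of 2 libraries, in fits that leave 1 library in a group, but the direction stayed. Against striatum, the log2 difference was -0.74 without the first hypothalamic wild type and -0.69 without the second striatal one. Against cortex it was -0.65 without that hypothalamic library and -0.75 without the second cortical wild type. Npy1r was at 3.19 and 4.28 RPKM in hypothalamus and 4.43 and 3.71 in cortex, with overlapping groups (log2 difference -0.12, adjusted p = 0.485). With median-ratio scaling this was -0.46 and passed (adjusted p = 0.0176), and without the first hypothalamic wild type it was 0.07. Against the 2.03 and 2.07 RPKM of striatum at 12 weeks the Npy1r difference was 0.72 (adjusted p = 0.000568), and 0.24 (adjusted p = 0.186) with median-ratio scaling.

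**Figure D4:**
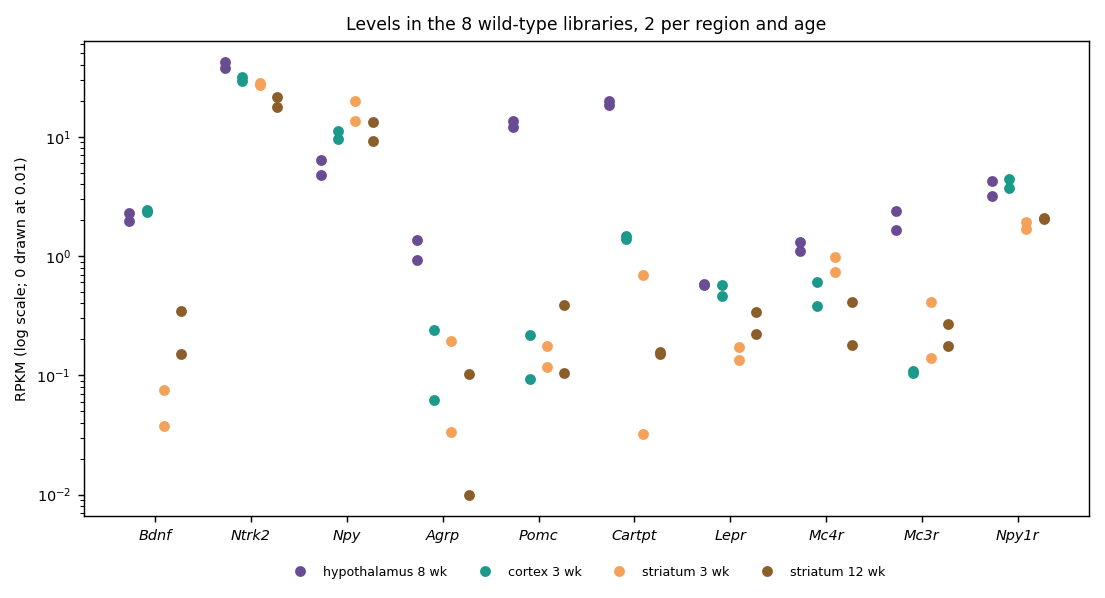
RPKM in the 8 wild-type libraries on a log axis (a value of 0 is drawn at 0.01), 2 points per region and age for each of the 10 genes. Pomc and Cartpt are at 12 RPKM or more in hypothalamus and under 1.5 elsewhere, Bdnf is near 2 RPKM in hypothalamus and cortex and under 0.35 in striatum, and Npy is lowest in hypothalamus.

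Within the B6/FVB wild types, cortex and striatum at 3 weeks share age and strain. There 43.5% of all tested genes were called. Bdnf was higher in cortex by 2.37 on the log2 scale (adjusted p = 5.66e-08), Npy1r by 0.98 (adjusted p = 9.25e-05) and Cartpt by 1.27 (adjusted p = 0.00411; 0.69 and an adjusted p of 0.0512 without the first striatal wild type, at 0.03 RPKM against 0.70 in the second). Npy (-0.64, adjusted p = 0.0501) and Mc4r (-0.45, adjusted p = 0.054) were lower in cortex and just missed the threshold. Both passed under other settings, for example at adjusted p of 0.0145 for Npy with median-ratio scaling and 0.0498 for Mc4r with a pseudocount of 1. From 3 to 12 weeks in striatum, 31.5% of all tested genes were called and the median gene was at -0.23. Mc4r was lower at 12 weeks, at 0.18 and 0.42 RPKM after 0.73 and 0.98 (log2 difference -0.78, adjusted p = 0.00618), but not without the first 12-week library (adjusted p = 0.0866) or the second 3-week library (0.0772). Bdnf (0.42, adjusted p = 0.0372) and Ntrk2 (-0.49, adjusted p = 0.014) passed as well. Bdnf did not pass without the second 12-week library (0.241) or without either 3-week library (0.135 and 0.107). Ntrk2 did not pass without the first 12-week library (0.129), without the second 3-week one (0.0918) or with median-ratio scaling (0.196). Npy was lower by 0.55 at 12 weeks without passing (log2 difference -0.55, adjusted p = 0.101), and had an adjusted p of 0.048 without the second 12-week library.

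The genes whose values ran most like each member were found by Pearson correlation of log2(RPKM + 0.5) over all 16 libraries, which mostly fall apart by region, so these correlations describe regional levels. For Pomc they were Nr5a1, a transcription factor of the ventromedial nucleus (r = 0.9945), and Hcrt. Those most like Cartpt were Cbln1, Ngb and Nap1l5, and those most like Agrp were Cuedc1, Cdh23 and Heyl. Mc3r ran with Galr1, a galanin receptor, Rab9b and Usp29, and Mc4r with Tapt1, Rnaseh2a and Ttc39c. Bdnf ran with Sphkap (r = 0.9884), Oxr1 and Zfpm2, Npy1r with Dpp10, Prkg2 and Dmd, Ntrk2 with Bag2, Wdr1 and Lhfp, and Npy with Ppp1r3g (r = 0.9657), Klf9 and Socs7.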

How the data were processed

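RNA from flash-frozen tissue was sequenced in 16 libraries, 2 in each of 8 groups taken from the labels. The authors deposited RPKM values for 24176 gene symbols. The submitters' processing notes name build mm9, TopHat2, cutadapt 1.6 and CASAVA 1.8.2, with the counter, strand setting and treatment of multi-mapped reads not given in the sources used here. Deposited RPKM values were not rescaled. Depth was estimated from the RPKM step of 1 read in 290 to 346 single-exon genes per library, of which 51.3% to 61.7% gave whole reads within 0.05; reads per gene are approximate and no count test was run.

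Values were tested with limma 3.58.1 (R 4.3.3, two-sided, variance trend) on log2(RPKM + 0.5) with 8 group means over 16 libraries (8 residual degrees of freedom), for genes at 1 RPKM or more in at least 2 libraries. This left 12348 genes, including 9 of the 10 members. P-values were adjusted over all of them within each of 10 comparisons, with a threshold of 0.05. In simulated data with 200 genes changed per draw, the fit for the hypothalamus recovered 0% of the genes given log2 changes of 0.5. It recovered 75.5% of those changed by 1 and 98.7% of those changed by 2. These shares hold for 200 changed genes and were not computed for fewer, whereas the hypothalamic comparison itself called 1 gene. Alternatives were other pseudocounts, filters and scalings, the compared groups alone, a replicate block and leaving out each library. Equal RPKM sums were added after seeing the data. The members and lists were chosen with earlier results of these data known. Named companions are the 2 tested genes with the smallest hypothalamic p per list and any called gene, and genes of similar pattern are the 3 with the highest correlation per member. Adcyap1, Nr5a1 and Fezf1 were named after their values were seen. Some genes that these rules name are not reported here. Overlapping genes and promoters come from annotation of GRCm38.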

Additional observations from a re-analysis of the deposited data

How the results depend on the processing

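Over 48 selected changes of single members, 676 values under alternatives were computed. Outside the hypothalamic knockout comparison and those of hypothalamus with other regions, only changes with a small unadjusted p were selected. The 48 thus leave out some changes given above, such as those of Npy in the cortical and striatal knockout comparisons. No member passed in any knockout comparison except Npy in the hypothalamic libraries alone (log2 difference -0.80, adjusted p = 0.00111 in limma). Direction reversed in 6 values: Agrp in the hypothalamic knockout comparison without the second wild type (range over left-out libraries -0.091 to 0.30), Mc4r there without the first knockout (-0.30 to 0.0085), Npy1r there without the second knockout or the first wild type (-0.17 to 0.20), Npy1r between hypothalamus and cortex without the first hypothalamic wild type (-0.30 to 0.069), and Ntrk2 between hypothalamus and cortex with median-ratio scaling (-0.0041). The causes were not tested. These 6 reversals are among the 676 values only. Over all changes of the tested members, 60 of 1310 values reversed, 54 of them in changes outside the 48. For Npy, knockout against wild type, 1 value reversed in cortex, 2 in striatum at 3 weeks and 3 at 12 weeks. Counts of called genes moved more. For the hypothalamic knockout comparison (1 gene) the count was 25 in the compared groups alone, 4 with no filter, and 0 with a filter of 1 RPKM in 4 libraries, equal RPKM sums, median-ratio scaling, a pseudocount of 0.1 or the replicate block. For cortex (5) it was 0 alone, 37 with equal sums, 37 with median ratios, 34 with no filter, 8 with a pseudocount of 1 and 3 with the replicate block. For striatum at 3 weeks (4) it was 9 alone and 1 with the block, and at 12 weeks (5) 32 alone, 10 with either scaling and 1 with the block. The mean over sets (46) gave 12 with the block, and the interaction (0) gave 1 with median ratios, 8 with no filter and 1 with a pseudocount of 1. Leaving out each library gave 0 to 1 for hypothalamus, 2 to 8 for cortex, 0 to 2 and 1 to 7 for striatum at 3 and 12 weeks, 19 to 55 for the mean and 0 to 1 for the interaction. For the regional comparisons it gave 5746 to 8070 (hypothalamus against striatum), 4437 to 5574 (hypothalamus against cortex), 3449 to 4614 (cortex against striatum) and 1495 to 4285 (striatal age). Among calls at 3 weeks between cortex and striatum, the share higher in cortex was 47.4%, 53.2% with median ratios and 64.9% with equal sums, and in the age comparison the share higher at 12 weeks was 22.7% and 53.8% with median ratios. Replicate numbers are shared between groups, but deviations of same-numbered libraries correlated at -0.34 to 0.44, so the block is given only as a count here. With 2 libraries a group, differences near 0.5 on the log2 scale were not recovered in simulated data, so a p that misses the threshold sets no limit on such differences.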
